A study of Mus musculus with 6 samples.

Results

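Heat shock chaperone genes were followed across islets of offspring exposed to bisphenol-A in the womb. The group was set by 10 gene symbols, and its members are all probe sets (sets of short oligonucleotides that report 1 transcript) that the platform annotation gives to such a symbol alone. It held 9 of the 10 genes, among 18193 genes that the annotation names on their own, with 24 of the 45101 probe sets, and 22 of them were bright enough to be tested among 27022. Hsp90ab1, the constitutive cytosolic Hsp90, has no probe set under its symbol in the annotation table and was not analysed here. For this report, 6 members were classed as stress-inducible (Hspa1a, Hspa1b, Hsp90aa1, Hspb1, Hsph1 and Dnajb1). The other 4 were classed as constitutive (Hspa8, Hsp90ab1, Dnaja1 and Hspe1). The split was assigned and not derived from these data, and a gene classed as constitutive may still respond to stress.

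The islets of Langerhans were those of wild-type OF-1 male offspring aged 30 days. Dosing was of the dam, between gestation days 9 and 16, with vehicle alone, 10 µg/kg/day of bisphenol-A (BPA10) or 100 µg/kg/day (BPA100). Each of the 3 groups had 2 arrays. The vehicle arrays carried RNA of 5 mice (replicate 1) and of 1 mouse (replicate 2), the BPA10 arrays RNA of 1 mouse (replicate 1) and of 2 mice (replicate 2), and both BPA100 arrays RNA of 1 mouse. The labels do not name litters, so p-values measure only the spread between these arrays. The median signal of an array lay between 33 and 40. The summed signal of 13 islet endocrine genes lay between 71250 and 75251 on the vehicle arrays, 88480 and 91308 on the BPA10 arrays and 76297 and 89235 on the BPA100 arrays. Their median difference from vehicle, 0.30 for BPA10 and 0.16 for BPA100, was -0.0195 and 0 after quantile normalization.

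Heat shock proteins are chaperones that hold unfolded proteins, refold them or pass them on for degradation. Hsp70 proteins bind exposed hydrophobic stretches, J-domain partners of the Hsp40 family hand them substrates, nucleotide exchange factors reset them, and Hsp90 finishes the folding of kinases and receptors. Under stress the heat shock factor HSF1 binds heat shock elements, inverted repeats of GAA, and switches inducible genes on within minutes. Chaperones that are made constitutively serve folding in unstressed cells. In islets this system is known for its response to heat, cytokines and the isolation procedure itself.

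In BPA100 islets the inducible Hsp70 genes Hspa1a and Hspa1b, and Dnajb1, the J-domain protein that works with them, had lower signals than in vehicle islets, while the other inducible members and the brightest probe set of each constitutive member differed by less than 0.25 on the log2 scale. Hspa1b stood at 27.8% of its vehicle level on its brightest probe set, Hspa1a at 32.2% and Dnajb1 at 61.8%. In BPA10 islets Hspa1b stood at 52.0% and Dnajb1 at 54.8%, and Hspb1, the small heat shock protein of the group, was 1.61-fold above vehicle. No probe set of the group, and none on the array, passed an adjusted p of 0.05 in any comparison (limma, Benjamini-Hochberg over all 27022 tested probe sets), so none of these differences is called.

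The paired inducible Hsp70 genes are described first, with the 250 bases before their annotated starts, because these show how alike the genes are. Both lie on chromosome 17 in the same orientation, their starts 12918 bases apart with 0 other annotated genes wholly between them, and the windows are identical at 247 of 250 bases. The differing positions, counted from 1 at the 5′ end of the window with the Hspa1a base first, are C44T, T47C and T249G. Sequences and positions are from RefSeq, build GRCm38.p6, on the gene's own strand, and capitals mark matches to GAANNTTC or TTCNNGAA, a pair of facing or opposed heat shock element units. Each motif equals its own reverse complement, so a match counts for both strands.
Hspa1a, chr17:34972157-34972406, minus strand: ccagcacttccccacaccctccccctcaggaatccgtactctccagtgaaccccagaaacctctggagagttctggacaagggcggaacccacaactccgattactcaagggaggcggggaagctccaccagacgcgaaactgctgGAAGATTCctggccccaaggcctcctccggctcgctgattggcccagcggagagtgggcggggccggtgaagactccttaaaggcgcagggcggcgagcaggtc
Hspa1b, chr17:34959239-34959488, minus strand: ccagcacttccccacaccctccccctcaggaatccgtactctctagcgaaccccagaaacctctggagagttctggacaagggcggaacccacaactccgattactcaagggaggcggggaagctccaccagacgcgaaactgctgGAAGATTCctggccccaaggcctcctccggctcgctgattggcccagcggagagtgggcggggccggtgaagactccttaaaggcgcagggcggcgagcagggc
Each window held the match GAAGATTC, from 104 to 97 bases before the start, and a CCAAT box (CCAAT or its reverse complement ATTGG) from 67 to 63 bases before it. Of 32851 windows of this length in the table, 12.8% held such a pair of units and 33.8% a CCAAT box. The genes also share nearly all of their coding sequence, so a probe set named for 1 of them can take up RNA of the other, and their values are read together as inducible Hsp70.

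Hspa1b encodes a cytosolic Hsp70 that is nearly silent in unstressed cells and strongly made after stress. Its brightest probe set, 1452318_a_at, had signals of 535 and 595 on the vehicle arrays, 368 and 233 on the BPA10 arrays and 157 and 155 on the BPA100 arrays. No group overlapped another, and the levels ran from vehicle down through BPA10 to BPA100. The difference from vehicle was -1.85 ± 0.22 (moderated SE, 2 arrays against 2, here and below) for BPA100 and -0.94 ± 0.22 for BPA10, as differences of mean log2(signal + 1). The 95% interval was -2.34 to -1.36 for BPA100 and -1.44 to -0.45 for BPA10. In limma the BPA100 difference had an adjusted p = 0.200 and an unadjusted p = 1.93e-05, the second smallest of all 27022 probe sets and rank 16 by the size of the reduction. Its adjusted p ranged from 0.0361 to 1 over 15 alternative settings and was under 0.05 in 5 of them. The BPA10 difference had an adjusted p = 0.462 in limma, and was -0.62 without BPA10 replicate 2 and -1.27 without BPA10 replicate 1.

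The other probe sets of Hspa1b gave the same order. Probe set 1427127_x_at, whose suffix marks probes shared with other sequences, measured 360 and 333 in vehicle, 282 and 206 in BPA10 and 143 and 101 in BPA100 islets. Probe set 1427126_at measured 288 and 240, then 208 and 134, then 84 and 63. Neither probe set had overlapping groups. Their differences were -1.52 ± 0.22 and -1.84 ± 0.26 for BPA100 (both adjusted p = 0.367 in limma), and -0.52 ± 0.22 and -0.65 ± 0.26 for BPA10.

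Hspa1a, the neighbouring inducible Hsp70 gene, had 1 probe set. It measured 217 and 144 on the vehicle arrays, 182 and 109 on the BPA10 arrays and 61 and 52 on the BPA100 arrays. BPA10 and vehicle overlapped, and both BPA100 arrays lay below the others. The BPA100 difference was -1.63 ± 0.30 (limma adjusted p = 0.661) and the BPA10 difference -0.33 ± 0.30, with a 95% interval from -1.01 to 0.35. Without BPA10 replicate 2 the BPA10 difference was 0.04. With only the arrays of 1 mouse, which sets 1 BPA10 array against 1 vehicle array, it was 0.34.

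Set directly against each other, the doses separated the Hsp70 probe sets. All 4 probe sets of Hspa1a and Hspa1b had both BPA100 arrays below both BPA10 arrays, by -1.31 ± 0.30 for Hspa1a and by -0.90 ± 0.22 to -1.19 ± 0.26 for Hspa1b. On the brightest Hspa1b probe set the -0.90 was -0.58 without BPA10 replicate 1 and -1.23 without BPA10 replicate 2. The adjusted p of each was 0.898 in limma. The 4 probe sets share a target, so they are not 4 separate observations.

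Dnajb1, the main J-domain partner that stimulates the ATPase of Hsp70, had another pattern across doses. A window of Dnajb1 is shown because the gene was low at both doses. The window before another annotated start, chr8:83608298-83608547, held 0 exact matches to the paired units and 0 CCAAT boxes. The window shown held 0 exact matches and 1 CCAAT box, from 151 to 147 bases before its start.
Dnajb1, chr8:83607925-83608174, plus strand: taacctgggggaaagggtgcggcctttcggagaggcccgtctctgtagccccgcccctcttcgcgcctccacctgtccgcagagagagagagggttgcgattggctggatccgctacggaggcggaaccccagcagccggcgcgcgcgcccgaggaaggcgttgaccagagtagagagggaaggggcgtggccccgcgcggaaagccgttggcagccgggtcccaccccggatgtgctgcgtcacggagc
Probe set 1416755_at of Dnajb1 measured 514 and 493 in vehicle, 261 and 290 in BPA10 and 289 and 334 in BPA100 islets. Both doses lay below vehicle, and they overlapped each other. The difference was -0.87 ± 0.15 for BPA10 (limma adjusted p = 0.315) and -0.69 ± 0.15 for BPA100 (adjusted p = 0.908). Between the doses it was 0.17, with a 95% interval from -0.16 to 0.51. The dimmer probe set 1416756_at measured 249 and 225, then 155 and 139, then 169 and 151, and gave -0.69 ± 0.17 and -0.56 ± 0.17. The Dnajb1 differences from vehicle kept their sign in all 15 alternative settings, between -0.95 and -0.79 for BPA10 and between -0.80 and -0.59 for BPA100. Several of these settings, such as another brightness filter, cannot change a difference of group means.

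**Figure D1:**
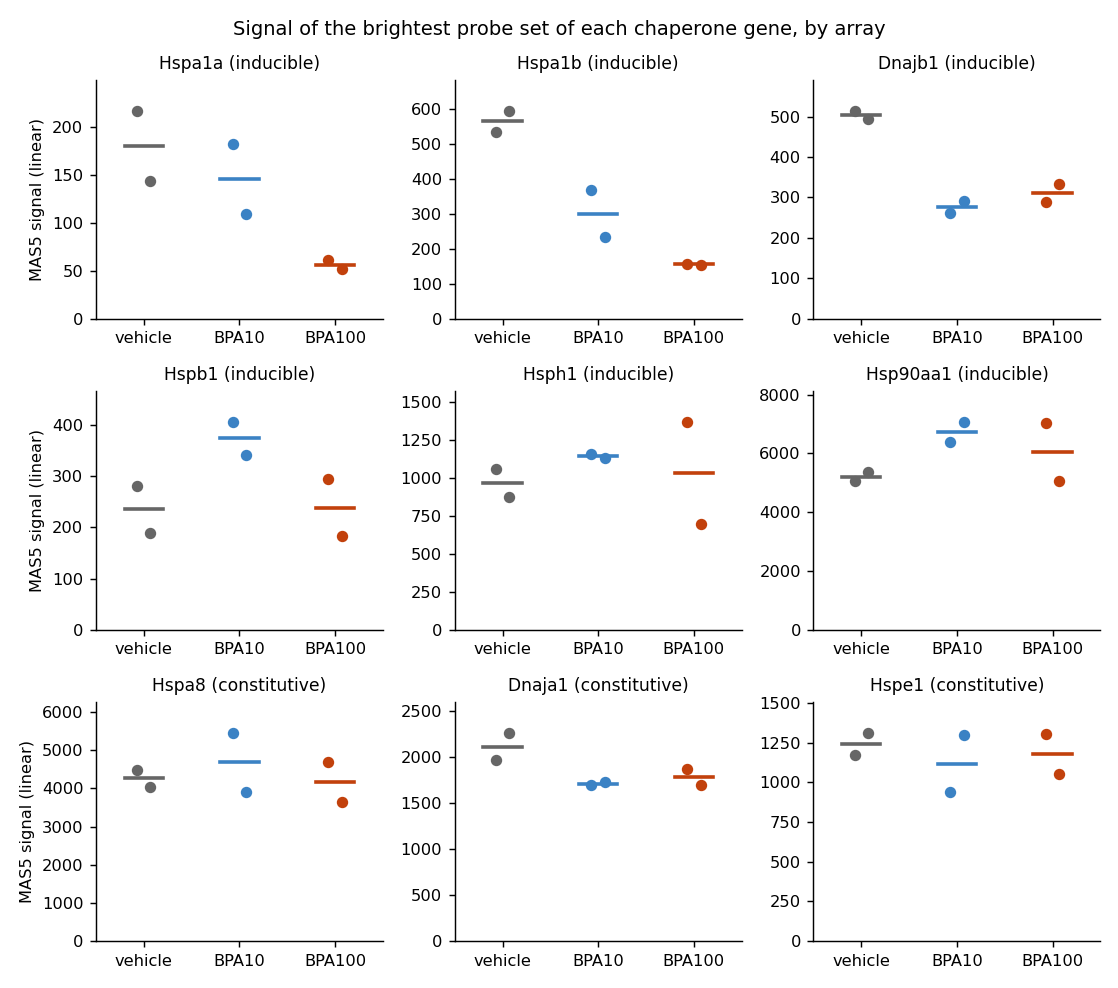
Linear MAS5 signal (y axis, arbitrary units, from 0, with its own range in each panel) of the brightest probe set of each of 9 chaperone genes in vehicle, BPA10 and BPA100 islets; points are arrays and bars are means of 2 arrays. Hspa1b steps down from 535 and 595 to 157 and 155, Dnajb1 is low at both doses, and the groups of Hspa8 overlap.

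The remaining inducible members did not share this pattern. Hspb1 encodes Hsp27, a small heat shock protein that binds unfolded proteins without ATP and stabilises actin. Its window is shown as that of an inducible member that was not lower at either dose, and it held 2 matches, GAAGTTTC from 117 to 110 and GAACCTTC from 97 to 90 bases before the start. At least 2 matches were found in 1.46% of all windows.
Hspb1, chr5:135887669-135887918, plus strand: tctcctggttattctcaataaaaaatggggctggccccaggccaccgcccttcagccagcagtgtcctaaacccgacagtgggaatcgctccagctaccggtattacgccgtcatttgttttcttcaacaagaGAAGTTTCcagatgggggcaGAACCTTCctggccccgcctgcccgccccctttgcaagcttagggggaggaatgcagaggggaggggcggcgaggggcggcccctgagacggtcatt
Probe set 1422943_a_at of Hspb1 measured 281 and 190 in vehicle, 406 and 342 in BPA10 and 294 and 183 in BPA100 islets. Both BPA10 arrays lay above all the others, and BPA100 overlapped vehicle. The BPA10 difference was 0.69 ± 0.26 (unadjusted p = 0.0305, adjusted p = 0.680 in limma) and the BPA100 difference 0.01 ± 0.26, with a 95% interval from -0.60 to 0.61. The BPA10 difference was 0.41 without vehicle replicate 2 and 0.97 without vehicle replicate 1. With only the arrays of 1 mouse, 1 BPA10 array against 1 vehicle array, it was 1.09. The second probe set, 1425964_x_at, has the suffix for probes shared with other sequences. It measured 262 and 164, then 243 and 275, then 246 and 245, and its BPA10 difference was 0.32 ± 0.22 with overlapping arrays. Stellate-cell and fibroblast markers were also highest on BPA10 replicate 1, with a summed signal of 13179. So were acinar markers, at 139482, and duct markers, at 5584, while macrophage and endothelial markers were highest on a vehicle array. On BPA10 replicate 2 the stellate-cell and fibroblast sum, 7801, lay between the vehicle sums of 8559 and 6781. The part of these cells in the Hspb1 result was not tested.

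Hsph1 encodes Hsp105, the exchange factor that releases ADP from Hsp70. It measured 1061 and 874 in vehicle, 1159 and 1130 in BPA10 and 1368 and 698 in BPA100 islets on probe set 1423566_a_at. The highest and the lowest value both came from BPA100 arrays. The BPA100 difference was 0.02 ± 0.27, between -0.46 without BPA100 replicate 1 and 0.51 without BPA100 replicate 2, and the BPA10 difference was 0.25 ± 0.27, between 0.11 without vehicle replicate 2 and 0.39 without vehicle replicate 1. The second probe set split the BPA100 arrays the same way, at 1357 and 669.

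Hsp90aa1 encodes the stress-inducible cytosolic Hsp90. Its brightest probe set, 1438902_a_at, measured 5051 and 5375 in vehicle, 6392 and 7066 in BPA10 and 7041 and 5065 in BPA100 islets. BPA10 lay above vehicle, by 0.37 ± 0.16 (95% interval -0.01 to 0.74, limma adjusted p = 0.704), and BPA100 spanned both groups, at 0.20 ± 0.16. After quantile normalization these were 0.14 and 0.0789. The other tested probe sets differed from vehicle by -0.02 and 0.19 in BPA100 and by -0.19 and 0.22 in BPA10 islets, where the -0.02 became 0.02 after median centring. A further 2 probe sets, with signals of 10 to 32 and of 2 to 15, lay below the brightness limit and were not tested.

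Among the constitutive members, Hspa8 encodes Hsc70, the standing Hsp70 of the cytosol that also uncoats clathrin vesicles. Its brightest probe set, 1455789_x_at, has the suffix that marks probes shared with other sequences. It measured 4488 and 4044 in vehicle, 5450 and 3914 in BPA10 and 4688 and 3655 in BPA100 islets, and the 3 groups overlapped. Its difference was 0.12 ± 0.19 for BPA10, which quantile normalization turned to -0.04, and -0.04 ± 0.19 for BPA100. The 95% interval for BPA100 ran from -0.47 to 0.38, so a change within that range is not excluded for this probe set. The 2 other bright probe sets gave -0.06 and -0.08 for BPA100, and the dim 1431182_at, at 46 to 105, gave -0.44 ± 0.38.

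Dnaja1 encodes another J-domain partner, which carries a farnesyl anchor and works with Hsc70. Its brightest probe set, 1416288_at, measured 1963 and 2255 in vehicle, 1697 and 1720 in BPA10 and 1862 and 1696 in BPA100 islets. Both doses lay below vehicle, by -0.30 ± 0.13 for BPA10 (unadjusted p = 0.0423, adjusted p = 0.688 in limma) and -0.24 ± 0.13 for BPA100. Without vehicle replicate 2 these were -0.20 and -0.14. The other Dnaja1 probe sets overlapped in every comparison with vehicle, and gave 0.10 and -0.10 for BPA10 and -0.02 and -0.09 for BPA100, where median centring turned the -0.02 to 0.02.

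Hspe1 encodes Hsp10, the lid of the mitochondrial Hsp60 folding chamber. Its window is shown because it was the sole member window with 3 consecutive units (GAANNTTC followed by NNGAA, or TTCNNGAA followed by NNTTC, so that each holds 2 overlapping paired matches), a pattern found in 0.466% of all windows.
Hspe1, chr1:55087898-55088147, plus strand: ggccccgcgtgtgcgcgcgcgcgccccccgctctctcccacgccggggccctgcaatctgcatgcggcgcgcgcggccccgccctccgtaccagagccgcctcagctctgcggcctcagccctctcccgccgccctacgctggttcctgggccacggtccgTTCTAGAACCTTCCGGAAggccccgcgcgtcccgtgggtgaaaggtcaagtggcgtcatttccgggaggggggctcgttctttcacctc
Here the run of units spanned bases 89 to 72 before the start. Probe set 1450668_s_at of Hspe1 measured 1170 and 1310 in vehicle, 940 and 1296 in BPA10 and 1304 and 1052 in BPA100 islets, with all groups overlapping and a BPA100 difference of -0.08 ± 0.18. Probe set 1422579_at measured 833 and 899, then 638 and 806, then 726 and 586, and lay below vehicle at both doses, by -0.27 ± 0.17 for BPA10 and -0.41 ± 0.17 for BPA100 (unadjusted p = 0.0378, adjusted p = 1 in limma). Of the 7 members found in the promoter table, Hspa1a, Hspa1b, Hspb1, Hsph1, Dnaja1 and Hspe1 held the paired units in at least 1 window. Among all windows 12.8% held them. Only Dnajb1 lacked an exact match, so this search could not sort the members by their differences.

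**Figure D2:**
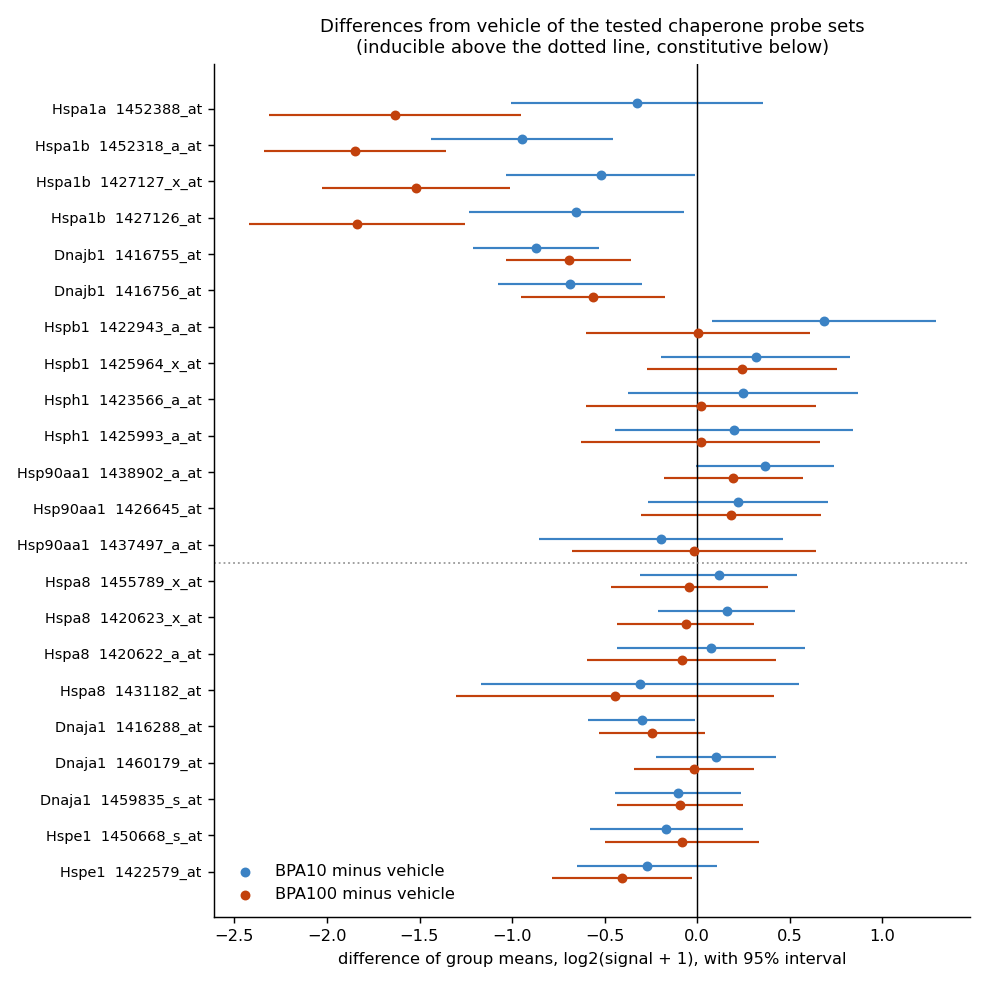
Difference of group means from vehicle in log2(signal + 1) (x axis) with 95% intervals for the 22 tested chaperone probe sets (y axis), BPA10 in blue and BPA100 in orange, 2 arrays per group. The 4 Hspa1a and Hspa1b probe sets lie between -1.85 and -1.52 at BPA100, the 2 Dnajb1 probe sets are below 0 at both doses, and most other intervals include 0.

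Counted over the 22 tested probe sets, 7 were lower in BPA100 than in vehicle islets at an unadjusted p under 0.05 and 0 were higher. Of all tested probe sets 3.98% passed that threshold, 1.87% lower and 2.11% higher. These 7 came from 4 genes, Hspa1a, Hspa1b, Dnajb1 and Hspe1. In 8 probe sets both BPA100 arrays lay below both vehicle arrays, against a background of 15.8%, and in 0 above, against 16.1% (31.9% in both directions). Of the 22, 4 were at or below a difference of -1, all of them Hspa1a or Hspa1b, against 0.651% of all probe sets. For BPA10, 6 were lower, where 3.96% of all were, and 1 was higher, where 3.12% were (7.08% in both directions), and 0 were at or below -1, against 1.67%. Arrays did not overlap for 12 of 22, 7 lower and 5 higher, against 36.0% of all probe sets (18.6% lower and 17.5% higher). Between the doses, 5 were lower in BPA100 than in BPA10 islets, where 2.31% were, and 0 were higher, where 2.44% were (4.75% in both directions). Arrays of the doses did not overlap for 5, all lower, against 30.7% of all probe sets (15.0% lower and 15.7% higher), and 2 were at or below -1, against 1.18%. With the mean of both doses set against vehicle, 8 were lower, where 2.99% were, and 0 were higher, where 2.70% were (5.69% in both directions). All 4 exposed arrays lay below both vehicle arrays for 7 and above for 0, against 7.33% and 7.17% (14.5% in both directions), and 3 were at or below -1, against 0.592%. The adjusted threshold was passed by 0 (0%) in each comparison and in the F test over the 3 groups. Probe sets of a gene share their RNA, and the members were chosen with these data known, so the counts describe the list.

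Relative to the vehicle mean, and with each gene taken at its brightest tested probe set, the 6 inducible members averaged -0.02 and -0.25 on the BPA10 arrays and -0.48 and -0.84 on the BPA100 arrays, against 0.10 and -0.10 on the vehicle arrays. The 3 constitutive members averaged -0.12 and -0.12, then 0.01 and -0.26, against -0.04 and 0.04. The inducible mean minus the constitutive mean was therefore 0.14 and -0.14 in vehicle, 0.09 and -0.14 in BPA10 and -0.49 and -0.58 in BPA100 islets. Only the BPA100 arrays stood apart, and the spread between arrays of a group was 0.15 (pooled SD). Within the inducible class, only Hspa1a, Hspa1b and Dnajb1 were lower in BPA100 than in vehicle islets, at -1.63, -1.85 and -0.69. Hsp90aa1, Hspb1 and Hsph1 stood at 0.20, 0.01 and 0.02, so the mean does not stand for the whole class. Relative to vehicle the mean distance was -0.54 for BPA100 and -0.02 for BPA10. With the inducible set reduced to Hspa1a, Hspa1b, Dnajb1 and Hspb1 it was -0.92 for BPA100. That set leaves out Hsp90aa1 and Hsph1, which were not lower, so its larger distance follows from the choice of members. With Hspa1b alone standing for inducible Hsp70, which counts that signal once among 5 inducible members, it was -0.34 for BPA100 and 0.0144 for BPA10, and the BPA100 arrays stood at -0.28 and -0.40 against 0.10 and -0.10 in vehicle. The median difference over all 13 inducible probe sets was -0.02, against -0.08 over the 9 constitutive ones and -0.0047 over all tested probe sets.

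The members did not vary as 1 block across the 6 arrays, which are in 3 groups. On log2 values Hspa1b correlated with Hspa1a at r = 0.90, with Dnajb1 at 0.69 and with Dnaja1 at 0.67. Hsph1, Hspb1 and Hsp90aa1 correlated with each other at 0.70 to 0.81, but with Hspa1b at -0.42 to 0.01. Hspa1a was less separate from these, at 0.41 with Hspb1, against 0.42 with Dnajb1 and 0.34 with Dnaja1. Dnajb1 and Dnaja1 correlated at 0.81, and Dnajb1 with Hsp90aa1 at -0.76. Hspa8 correlated with Hspb1 at 0.73, with Hsph1 at 0.69 and with Hspa1a at 0.48, and Hspe1 lay between -0.42 (Hspa8) and 0.57 (Dnaja1) with all other members. Outside the group, the 5 genes whose pattern was most like that of Hspa1b, of 13184 compared by the same measure, were Plet1os (0.993), Emc1 (0.984), Col19a1 (0.980), Ccdc160 (0.979) and Fars2 (0.975). Their differences between BPA100 and vehicle were smaller, from -0.77 to -0.27, and 82 of 13184 genes reached r of 0.9. Plet1os, Col19a1 and Ccdc160 were dim, at 27 to 42, 28 to 44 and 33 to 64, so small steps in signal carry their correlations. All these correlations are descriptions over 6 points, with no test.

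Other genes of the heat shock network were read from lists of co-chaperones, other chaperones and heat shock factors. Of 59 genes listed, 56 were in the annotation and 53 were tested. For BPA100 against vehicle, 2 of 53 were higher and 0 lower at an unadjusted p under 0.05, where 2.11% and 1.87% of all probe sets were, with a median of -0.02 against -0.0006 over all genes. For BPA10, 1 was higher and 1 lower, where 3.12% and 3.96% of all probe sets were, with a median of 0.02 against 0.02, and in each comparison 0 passed when adjusted over all probe sets in limma.

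Hspa4l, an Hsp110 relative of Hsph1, measured 369 and 399 in vehicle, 393 and 485 in BPA10 and 630 and 486 in BPA100 islets, a BPA100 difference of 0.53 ± 0.18 (unadjusted p = 0.0161) on the brightest of its 5 tested probe sets. The other 4 gave smaller differences, from 0.17 to 0.37. Dnaja4, a J-domain protein, measured 678 and 634, then 670 and 819, then 1058 and 795, with a BPA100 difference of 0.48 ± 0.17 (unadjusted p = 0.022) and 0.49 and 0.59 on its other probe sets. These 2 lay above vehicle at the dose where Hspa1a and Hspa1b lay lowest. Cryab, the small heat shock protein alpha-B crystallin, measured 151 and 156 in vehicle, 269 and 209 in BPA10 and 141 and 150 in BPA100 islets, and was higher in BPA10 by 0.62 ± 0.18 (unadjusted p = 0.00838) and not in BPA100 (-0.08), an order that Hspb1 also had. Hsbp1, a small protein that binds heat shock factor trimers, measured 2647 and 2073, then 1603 and 1830, then 1826 and 1945, with differences of -0.45 ± 0.15 for BPA10 (unadjusted p = 0.0155) and -0.31 ± 0.15 for BPA100.

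Hspd1, the Hsp60 partner of Hspe1, measured 2286 and 2315 in vehicle, 2463 and 2782 in BPA10 and 2875 and 2148 in BPA100 islets, and Bag3, a stress-induced exchange factor of Hsp70, measured 142 and 144, then 210 and 136, then 174 and 119. Their BPA100 differences were 0.11 ± 0.16 and 0.01 ± 0.26. Hsf1 has no probe set under its symbol in the annotation table and was not analysed here. By role, the list medians for BPA100 were 0.01 over 21 Hsp70 relatives and co-chaperones, -0.06 over 10 Hsp90 co-chaperones, -0.08 over 5 small heat shock proteins, 0.08 over 7 mitochondrial chaperones, -0.02 over 8 subunits of the cytosolic chaperonin TRiC and -0.01 over 2 heat shock factor genes. The 15 endoplasmic reticulum chaperones had a median of 0.14, with 15 above vehicle (11 after quantile normalization) and 0 at an unadjusted p under 0.05, and averaged 0.40 and -0.11 on the BPA100 arrays.

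**Figure D3:**
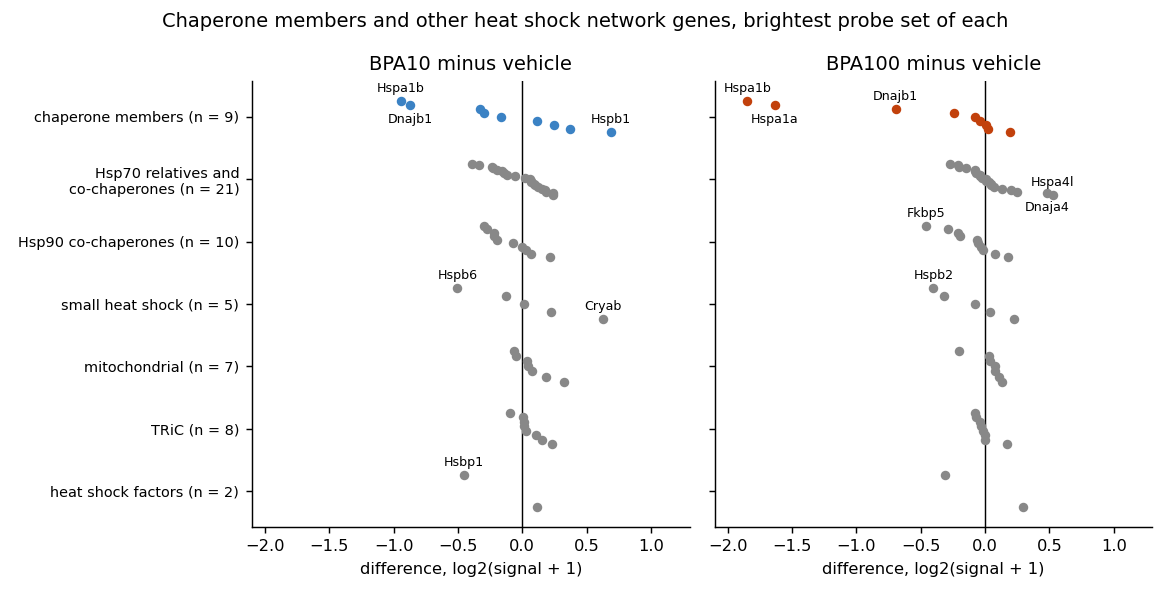
Difference from vehicle in log2(signal + 1) (x axis) for BPA10 (left) and BPA100 (right), 1 point per gene at its brightest tested probe set, for 9 chaperone members (coloured) and 53 other heat shock network genes by role (grey, n in brackets); genes beyond 0.4 in either direction are named in each panel. Hspa1a and Hspa1b stand at -1.63 and -1.85 at BPA100, while Hspa4l and Dnaja4 stand at 0.53 and 0.48.

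Other lists also differed between the arrays on which Hspa1a and Hspa1b were low and the vehicle arrays. Immediate-early genes, which answer handling and stimulation within minutes, averaged lower on both BPA100 arrays and BPA10 replicate 2 than on the vehicle arrays. On BPA10 replicate 1, where Hspa1b was also below vehicle, they averaged -0.03 on the log2 scale relative to the vehicle mean. That lay between the vehicle arrays, at 0.15 and -0.15. In BPA100 islets 17 of 20 tested genes were below vehicle, 5 at an unadjusted p under 0.05 in limma, where 1.87% of all probe sets were. The median was -0.44 against -0.0006 over all genes. In BPA10 islets 16 of these 20 genes were below vehicle, 3 at an unadjusted p under 0.05 in limma, where 3.96% of all probe sets were. The BPA10 median was -0.28 against 0.02 over all genes. Their summed signal was 7809 and 5178 in vehicle, 7356 and 3726 in BPA10 and 3689 and 3849 in BPA100 islets. Fos measured 2349 and 841, then 2165 and 183, then 165 and 168. From BPA10 replicate 1 to replicate 2, Fos went from 2165 to 183, Hspa1a from 182, which is within the vehicle values, to 109, and Hspb1 from 406 to 342. Over the same arrays Hspa1b went from 368 to 233, both below vehicle, and Dnajb1 from 261 to 290 on its brighter and from 155 to 139 on its dimmer probe set, also below vehicle. Whether the lower immediate-early signals and the chaperone values are related was not tested.

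Markers of other cells of the preparation also differed between arrays. Stellate-cell and fibroblast markers were lower in BPA100 islets for 13 of 14 genes, with summed signals of 8559 and 6781 in vehicle, 13179 and 7801 in BPA10 and 6787 and 5035 in BPA100 islets. Macrophage markers were lower for 8 of 11, at 4411 and 1417, then 2804 and 1832, then 1477 and 1378, and duct markers for 6 of 6, at 4543 and 5497, then 5584 and 4743, then 4244 and 3634. Acinar markers were higher for 15 of 16, at 99419 and 60194, then 139482 and 128166, then 130922 and 78977. Endothelial markers were higher for 4 of 9, between 3985 and 4404 on all arrays. None of the tested markers of these lists was at 0 on any array, and their part in the chaperone results was not tested. In whole islets fewer cells of a type and less RNA per cell cannot be told apart.

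**Figure D4:**
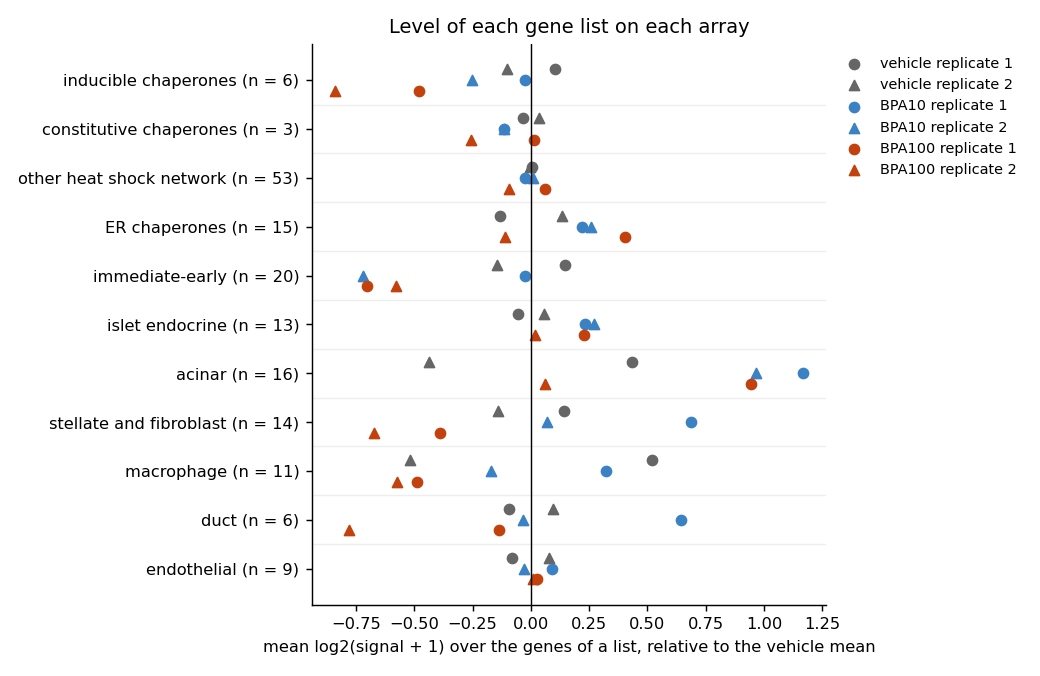
Mean log2(signal + 1) over the genes of each list relative to the vehicle mean (x axis) for 11 lists (y axis, with the number of tested genes), with circles for replicate 1 and triangles for replicate 2 of vehicle (grey), BPA10 (blue) and BPA100 (orange). The inducible chaperones stand at -0.48 and -0.84 on the BPA100 arrays, where immediate-early genes stand at -0.70 and -0.58, and the 53 other heat shock network genes stay between -0.09 and 0.06.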

How the data were processed

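From 150 ng of islet RNA per array, amplified in 2 cycles, 6 Affymetrix arrays were hybridised, per the labels' protocols. The authors deposited 1 linear MAS5 intensity signal per probe set, per the submitters' processing notes; version and genome build are not given in the sources used here. Trimmed by 2% at each end, every array averaged 150, which makes a signal relative to its array.

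Analysis used log2(signal + 1), which understates differences of dim probe sets. Controls (64) and probe sets whose mean fell under the 40th percentile were left out. limma 3.58.1 in R 4.3.3 (lmFit, eBayes with trend) took all 6 arrays and 3 groups, with 3 residual and 5.4 prior degrees of freedom, 2-sided, and Benjamini-Hochberg adjustment at 0.05. The arrays' number limits the precision (median SE 0.24), and permuting 2 arrays against 2 gives no p below 0.333.

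The platform annotation gave 1 gene to 34945 probe sets (34754 found in RefSeq, GRCm38.p6), several to 932 and none to 9160; lists use each gene's brightest tested probe set. Members, lists and the naming rule were chosen with earlier results of these data known. All members are named, as are Hsf1, Hspd1, Bag3, Cryab, up to 4 network genes per comparison with vehicle with the smallest p under 0.05, and the 5 genes most correlated with Hspa1b. Alternatives were quantile normalization, median centring, a pseudocount of 16, other filters, no intensity trend, only the groups compared, the replicate block, each array left out, only arrays of 1 mouse, and other members or probe sets for the inducible and constitutive means. The arrays of 1 mouse were vehicle replicate 2, BPA10 replicate 1 and both BPA100 arrays. The fit was tested on simulated data.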

Additional observations from a re-analysis of the deposited data

How the results depend on the processing

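Some alternatives leave a difference of group means unchanged whatever the data, so they cannot bear on its direction. These are other filters, no intensity trend, only the groups compared, the replicate block and leaving out an array of a group not compared. The 15 alternatives kept the direction of Hspa1b and Dnajb1 in both comparisons with vehicle and of Hspa1a for BPA100. The BPA100 difference of Hspa1b passed the adjusted threshold in limma in 5 of them: median centring (-1.81, adjusted p = 0.0361), only the groups compared (-1.85, 0.0373), the replicate block (-1.85, 0.046), without BPA10 replicate 1 (0.0417) and without BPA10 replicate 2 (0.039). The cause was not tested.

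Probe sets called over the whole array were 0 with all arrays. For BPA100 against vehicle they were 6 with median centring, 4 with only the groups compared, 7 with the replicate block and 0 to 5 with an array left out (5 without vehicle replicate 1). For BPA10 against vehicle they were 1 with only the groups compared and 0 to 9 with an array left out (9 without vehicle replicate 1), for BPA100 against BPA10 0 to 1 (1 without BPA10 replicate 2), and for both doses 1 with median centring, 1 with the replicate block and 0 to 7 (7 without vehicle replicate 1). The F test called 2 with the replicate block and 0 to 6 with an array left out (6 without vehicle replicate 1). The labels share replicate numbers, but the deviations of equal numbers correlated at 0.19, 0.20 and 0.08, so the numbers were not taken as pairs.

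Member probe sets under an unadjusted p of 0.05 for BPA10 against vehicle numbered 3 with no intensity trend, 3 with only arrays of 1 mouse and 3 to 8 with an array left out (3 without BPA10 replicate 2, 4 without vehicle replicate 2). Between doses they were 4 to 9 (9 without BPA100 replicate 1), for BPA100 against vehicle 6 to 10, and for both doses 4 with only arrays of 1 mouse and 6 to 12 with an array left out. The inducible minus constitutive mean was -0.25 for BPA10 with the reduced inducible set and 0.23 with only arrays of 1 mouse, against -0.02, with -0.16 to 0.12 when an array was left out; for BPA100 it was -0.92 with the reduced set and -0.34 with Hspa1b alone for inducible Hsp70, an alternative chosen after seeing the data, against -0.54, and -0.68 to -0.40 with an array left out.

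Quantile normalization took Hsp90aa1 from 0.37 to 0.14 in BPA10. Directions turned for members near 0. Hspa1a in BPA10 turned to 0.34 with only arrays of 1 mouse and ranged from -0.69 to 0.04 with an array left out. Hspa8 turned to -0.0448 (BPA10) and -0.0824 (both doses) after quantile normalization and to 0.0336 (BPA100) with only arrays of 1 mouse. With an array left out, Hspa8 ranged from -0.12 to 0.36 in BPA10, -0.22 to 0.14 in BPA100, -0.40 to 0.0808 between doses and -0.0819 to 0.16 for both doses. Hspe1 ranged from -0.40 to 0.066, -0.23 to 0.0748 and -0.15 to 0.32 in the first 3 of these, Hsph1 from -0.46 to 0.51 in BPA100, -0.71 to 0.26 between doses and -0.11 to 0.38 for both doses, Hspb1 from -0.33 to 0.35 in BPA100, Hsp90aa1 from -0.0408 to 0.43 in BPA100 and -0.41 to 0.0672 between doses, and Dnaja1 from -0.0106 to 0.12 between doses. The cause was not tested.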
